A study of Mus musculus with 2 samples.

Results

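Interferon-stimulated genes are the transcripts that a cell turns on when an interferon binds its receptor. A list of 48 of them was followed in islet T cells of NOD mice with and without CD137, the costimulatory receptor encoded by Tnfrsf9. The members were named genes and were looked up by symbol: each of the 48 was found once among the 27998 genes of the wild-type and the knockout library. The list has 42 members called type I-like here (Isg15, Ifit, Oas, Mx1, Irf7 and the like) and 6 called gamma-like (Gbp2, Gbp7, Irgm1, Irgm2, Igtp and Iigp1). The names of both groups are working names, since most of these genes answer to either kind of interferon.

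Each strain gave 1 single-cell RNA library. The wild-type library came from NOD.Foxp3-EGFP mice and the knockout library from NOD.Tnfrsf9-/-.Foxp3-EGFP mice, so both carried a green reporter in Foxp3+ cells and the knockout was global, with CD8 T cells and Tregs both lacking CD137. Islets of 6 females aged 9 to 10 weeks were pooled per strain, and sorted CD8 T cells and GFP+ Tregs were put together in the same library, in proportions that the sort set. With 1 library per genotype there is no test: the 95% intervals cover counting error of unique molecular identifiers (UMIs) only, and mouse, sort and library cannot be told apart from genotype.

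Type I interferons bind the receptor made of Ifnar1 and Ifnar2, and the kinases Tyk2 and Jak1 then activate a complex that contains Stat2 and Irf9 and binds the interferon-stimulated response element (ISRE). Interferon gamma binds Ifngr1 and Ifngr2, and its signal acts through another element, the gamma-activated site (GAS). In the islets of NOD mice, T cells are a source of interferon gamma, and an interferon signature is a known early feature of autoimmune diabetes.

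Only barcodes with between 200 and 5000 detected genes and no more than 20% of UMIs from mitochondrial genes entered. CD8 T cells had at least 2 UMIs of Cd8a and Cd8b1 and none of Cd4 and Foxp3. Tregs had no UMI of Cd8a and Cd8b1 and at least 1 of Cd4, Foxp3, Il2ra and Ikzf2. This gave 891 wild-type and 1200 knockout CD8 T cells of 2804 and 2991 barcodes, with 7014920 and 7908290 UMIs, and 1552 and 1444 Tregs with 8888924 and 8152788 UMIs. Levels are given as UMIs of a gene per 1000000 UMIs of the class (CPM), which for reads of 3′ ends count molecules and were not divided by gene length. Median depth was 6076 and 5275 UMIs a cell in CD8 T cells and 4302 and 4309 in Tregs. Cd3d, Cd3e and Cd3g, which the rule did not use, were present in both classes. Ctla4, also outside the rule, was 5.43-fold (wild type) and 4.73-fold (knockout) higher in Tregs than in CD8 T cells, and Tnfrsf18 6.42-fold and 5.70-fold. Neither was restricted to Tregs: Ctla4 UMIs occurred in 65.1% (wild type) and 50.4% (knockout) of CD8 T cells, Tnfrsf18 UMIs in 43.2% and 39.3%. Ikzf2, a gene of the Treg rule, had UMIs in 40.3% and 28.1% of the CD8 class. Foxp3 had UMIs in 13.2% (wild type) and 19.5% (knockout) of the Treg class. Tnfrsf9 was lower in the knockout, at 32.0 against 106.5 CPM in CD8 T cells and 110.1 against 336.7 CPM in Tregs. The libraries shared 16 barcodes.

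Some features of the classes moved with genotype and touch the values that follow. CD8 T cells with at least 2 UMIs of the naive genes Lef1 and Ccr7 and fewer than 3 of the proliferation genes Mki67, Top2a, Birc5, Cdk1 and Ube2c came to 28.6% in the wild-type library and 58.8% in the knockout library. Among Tregs the same kind of cell came to 22.6% and 27.4%. Proliferating cells, with at least 3 UMIs of those 5 genes, came to 20.4% and 8.08% of CD8 T cells and 9.79% and 11.6% of Tregs. Without them the log2 ratio of the summed list in CD8 T cells, knockout over wild type, moved from -0.04 to -0.21. Summed levels of the 7 marker lists of other cell types (myeloid, B, plasmacytoid dendritic, NK, acinar, endocrine, endothelial or stromal) lay between 2.25 and 262 CPM in the 4 class sums. The CD8 class held 9 wild-type and 6 knockout cells with at least 12 UMIs of the plasmacytoid dendritic cell genes Siglech and Ly6d, while no other cell of either class had more than 1. Of those cells, 4 and 3 had no UMI of the Cd3 genes and 7 and 1 had a Cd8b1 UMI. They were 1.01% and 0.5% of the CD8 class but held 4.55% and 2.59% of its member UMIs other than those of Ifi27l2a. Some of the CD8 values that they moved are given with and without them.

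Promoters are shown first because interferons act on their target genes through short DNA elements, and the letters of these elements can be counted in the members of both groups. RefSeq promoter windows of build GRCm38.p6, from 250 bases before to 50 after the start, were matched for 37 of the 48 members. The ISRE letters, GAAA and GAAA with any 2 bases between them, searched on both strands, were in the windows of 20 of these 37 genes (54.1%), against 3.99% of the 27025 genes in the table. The GAS letters, TTC and GAA with any 3 bases between them, were in 9 (24.3%), against 9.55% of all genes. All 5 matched gamma-like members (Gbp2, Gbp7, Irgm1, Irgm2 and Igtp) held the ISRE letters, and 3 of them also the GAS letters. Of the 32 matched type I-like members 15 held the ISRE letters, 6 the GAS letters and 14 neither, Samd9l, Herc6 and Irf7 among them. A match describes letters in a window and is not a binding site. The stretches below are printed 5′ to 3′ on the strand of the gene, all before its start, with the ISRE match in capitals. TTTC and TTTC with 2 bases between them is the same element read on the other strand.
Gbp2, chr3:142620589-142620628, plus strand: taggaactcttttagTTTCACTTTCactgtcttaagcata
Gbp7, chr3:142530268-142530307, plus strand: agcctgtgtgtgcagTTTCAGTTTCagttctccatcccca
Irgm1, chr11:48871426-48871465, minus strand: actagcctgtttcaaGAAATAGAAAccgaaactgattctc
Irgm2, chr11:58214898-58214937, plus strand: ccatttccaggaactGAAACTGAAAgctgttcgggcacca
Igtp, chr11:58199507-58199546, plus strand: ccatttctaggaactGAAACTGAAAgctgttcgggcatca
Isg15, chr4:156200866-156200905, minus strand: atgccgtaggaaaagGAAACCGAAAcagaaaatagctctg
Ifit1, chr19:34640770-34640809, plus strand: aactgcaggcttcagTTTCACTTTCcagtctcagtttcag
Slfn5, chr11:82951932-82951971, plus strand: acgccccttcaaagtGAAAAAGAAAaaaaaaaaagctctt
The stretches of Irgm2 and Igtp, neighbouring GTPase genes, were identical at 38 of 40 bases. Their annotated spans overlap on the same strand (chr11:58199618-58222782 and chr11:58199556-58207591, GENCODE vM21), so how their reads were split is uncertain. The same caution holds for members with close paralogs, such as Oas1a, Ifit3, Ifi203 and the Slfn genes.

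One member outweighed the others. Ifi27l2a, a small interferon-induced protein of the ISG12 family, gave 62823 of the member UMIs over both libraries and classes (44.4%). The next were Sp100, a component of nuclear bodies, with 5.47%, Ifi203 of the PYHIN family with 5.45%, and the GTPase Iigp1 with 2.90%. Gbp7, Bst2 (the virus tether tetherin), Zbp1 (a sensor of Z-form nucleic acid), Ifi47, Igtp and Gbp2 each gave between 2.10% and 2.89%. For this reason sums over the list are given with and without Ifi27l2a. At the other end, Oasl1, Oas2 and Ifi44 did not reach 20 UMIs over both libraries in CD8 T cells, and Ifi44 alone missed it in Tregs.

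**Figure D1:**
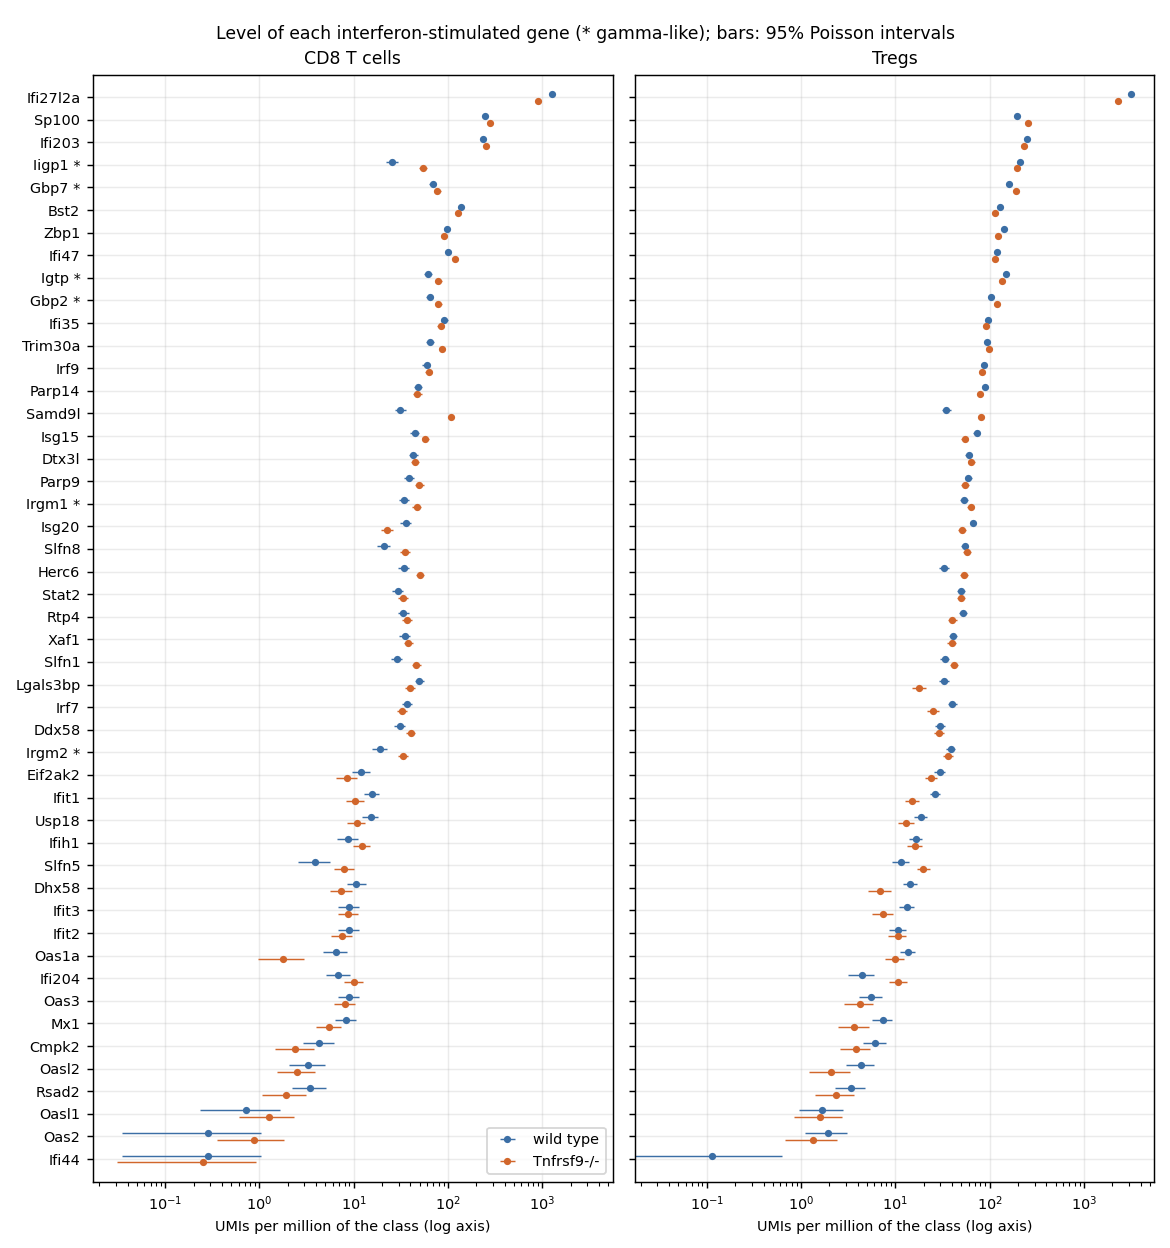
Level of each of the 48 members in CPM of the class (log axis) in wild-type (blue) and knockout (orange) CD8 T cells and Tregs, with 95% Poisson intervals (counting error); an asterisk marks the gamma-like members and a class sum of 0 UMIs has no point. Ifi27l2a stands at 905 to 3142 CPM, above every other member, and Samd9l and Iigp1 show the widest gaps between the libraries among the better measured genes in CD8 T cells.

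Summed over the list, Tregs held more of these transcripts than CD8 T cells in both libraries. The 48 members summed to 3244 CPM (3202 to 3287) in wild-type CD8 T cells and 5913 CPM (5863 to 5964) in wild-type Tregs, 0.87 apart on the log2 scale (0.84 to 0.89). In the knockout library the sums were 3158 CPM (3119 to 3198) and 5049 CPM (5000 to 5098), a log2 ratio of 0.68 (0.65 to 0.70). Ifi27l2a stood at 1275 CPM in wild-type and 905 CPM in knockout CD8 T cells. In Tregs it stood at 3142 and 2305 CPM, so it was 2.46-fold and 2.55-fold higher there. Without it the log2 ratio of Tregs over CD8 T cells was 0.49 (0.46 to 0.52) for wild-type and 0.28 (0.26 to 0.31) for knockout cells. For the type I-like members alone, also without Ifi27l2a, the log2 ratio was 0.27 (0.24 to 0.31) and 0.09 (0.06 to 0.12). Factors estimated by TMM or by the median of ratios lower every Treg over CD8 log2 ratio by 0.10 to 0.15, and differences smaller than that have no firm direction. The 0.09 of the type I-like members in the knockout library is such a difference.

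Of 46 members with at least 20 UMIs, 20 were at least 1.5-fold higher in wild-type Tregs, against 19.4% of all genes so filtered, and 2 were at least 1.5-fold lower, against 8.78%. In the knockout library 12 of 46 were higher, against 17.5%, and 2 were lower, against 8.39%. The member median was 0.54 on the log2 scale among wild-type and 0.25 among knockout cells, against 0.12 and 0.15 over all genes. The median of the type I-like members was 0.46 and 0.12, so among knockout cells it did not exceed that of all genes. Of the 34 members with the same direction in both libraries, 28 were higher in Tregs and 6 in CD8 T cells. The same split was not counted over all genes, whose medians also lay on the Treg side, so it is not read as particular to the members. Some of the 28 differed by less than the scaling shift, such as Ifi35 with log2 ratios of 0.07 and 0.12.

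As a group the gamma-like GTPases leaned to the Treg side more than the type I-like members. Their sum had log2 ratios of 1.40 (wild type) and 1.00 (knockout), against 0.81 and 0.63. In the knockout library Ifi27l2a alone, at 1.35, lay above the gamma-like sum. All 6 were at least 1.5-fold higher in wild-type Tregs, against 19.4% of all genes. In the knockout library 3 were, against 17.5%, and Irgm2 was within counting error there (log2 ratio 0.12, -0.12 to 0.37). Iigp1, which acts on the vacuoles of intracellular microbes, stood at 25.7 CPM (22.0 to 29.7) in wild-type CD8 T cells and 211 CPM (202 to 221) in wild-type Tregs, an 8.24-fold difference. In the knockout it stood at 54.2 CPM (49.2 to 59.6) and 197 CPM (188 to 207), a 3.64-fold difference. The guanylate-binding protein gene Gbp7 differed by 2.36-fold and 2.47-fold. Among type I-like members Slfn5 of the Schlafen family was 2.95-fold and 2.48-fold higher in Tregs, and Eif2ak2, the kinase PKR that halts translation on double-stranded RNA, was 2.46-fold and 2.84-fold higher. Oas1a, a synthetase of the second messenger that activates RNase L, was 2.10-fold and 5.54-fold higher in Tregs.

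Few members leaned to CD8 T cells. Oas3, another synthetase of that family, was lower in Tregs with log2 ratios of -0.68 (-1.25 to -0.12) and -0.96 (-1.60 to -0.33). Lgals3bp, a secreted glycoprotein that binds galectin-3, had log2 ratios of -0.58 (-0.81 to -0.36) and -1.14 (-1.44 to -0.86). The other 4 (Mx1, Sp100, Bst2 and Ddx58) were closer between the classes, with a smaller of the 2 log2 differences between -0.18 and -0.04. Without the cells that carried Siglech and Ly6d UMIs, Bst2 turned to the Treg side in both libraries, with log2 ratios of 0.40 (0.26 to 0.54) and 0.22 (0.08 to 0.35).

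**Figure D2:**
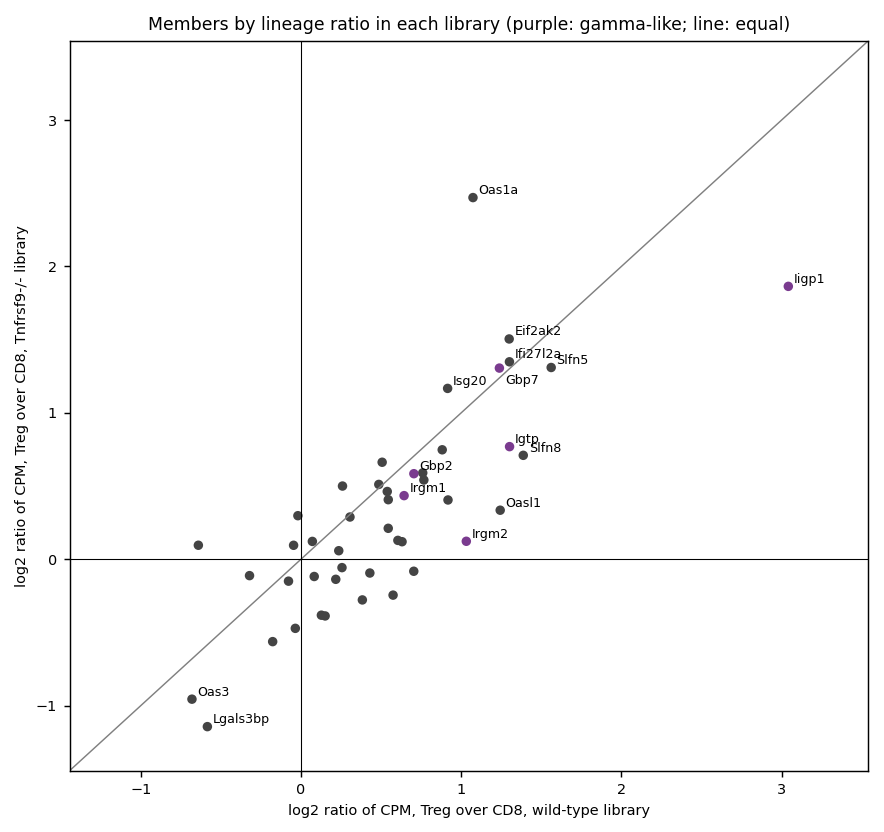
Log2 ratio of CPM in Tregs over CD8 T cells for the 46 members with at least 20 UMIs in each library, wild type on the x axis and knockout on the y axis; purple points are gamma-like and the line marks equal ratios. Most points lie above 0 on both axes, Iigp1 has the largest wild-type ratio (3.04) and lies below the line, and Oas3 and Lgals3bp lie at the lower left.

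The genotype comparison asks whether the interferon program differed where CD137 was missing. In CD8 T cells the summed list was close in the 2 libraries, 3158 against 3244 CPM, a log2 ratio of -0.04 (-0.06 to -0.01). In Tregs it was lower in the knockout, 5049 against 5913 CPM, a log2 ratio of -0.23 (-0.25 to -0.21). Ifi27l2a carried both values: it was lower in the knockout by a log2 ratio of -0.49 (-0.54 to -0.45) in CD8 T cells and -0.45 (-0.47 to -0.42) in Tregs. The remaining 47 members summed to 1969 CPM (1937 to 2002) in wild-type and 2253 CPM (2220 to 2287) in knockout CD8 T cells, a log2 ratio of 0.19 in the opposite direction. In Tregs they summed to 2771 and 2744 CPM, a log2 ratio of -0.01 (-0.04 to 0.01), not distinguishable at this depth.

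In CD8 T cells, 6 of the 45 members past the filter were at least 1.5-fold higher in the knockout, against 13.7% of all genes, and 5 were at least 1.5-fold lower, against 8.2%. In Tregs, 4 of 47 were higher, against 6.93%, and 8 were lower, against 3.62%. The members at least 1.5-fold lower in Tregs were a larger share than among all genes, and the other shares were near those of all genes in the whole class. The 5 lower members of CD8 T cells became 9 to 11 under stricter limits on cells, a stricter class rule or without proliferating cells, and 3 without cells with naive genes. Shares of all genes under these alternatives are not given, so the change is not read as particular to the members. The member median log2 ratio was 0.11 in CD8 T cells and -0.10 in Tregs, against 0.04 over all genes in each class. Both classes share neither cells nor UMIs, but they came from the same 2 libraries. Of 45 members measured in both classes, 13 were higher in the knockout in both, 20 lower in both, 12 higher in CD8 T cells and lower in Tregs, and 0 the reverse. These are 28.9%, 44.4%, 26.7% and 0% of members, against 38.3%, 30.1%, 14.7% and 16.8% of the 10729 genes measured in both, with no test of the difference.

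**Figure D3:**
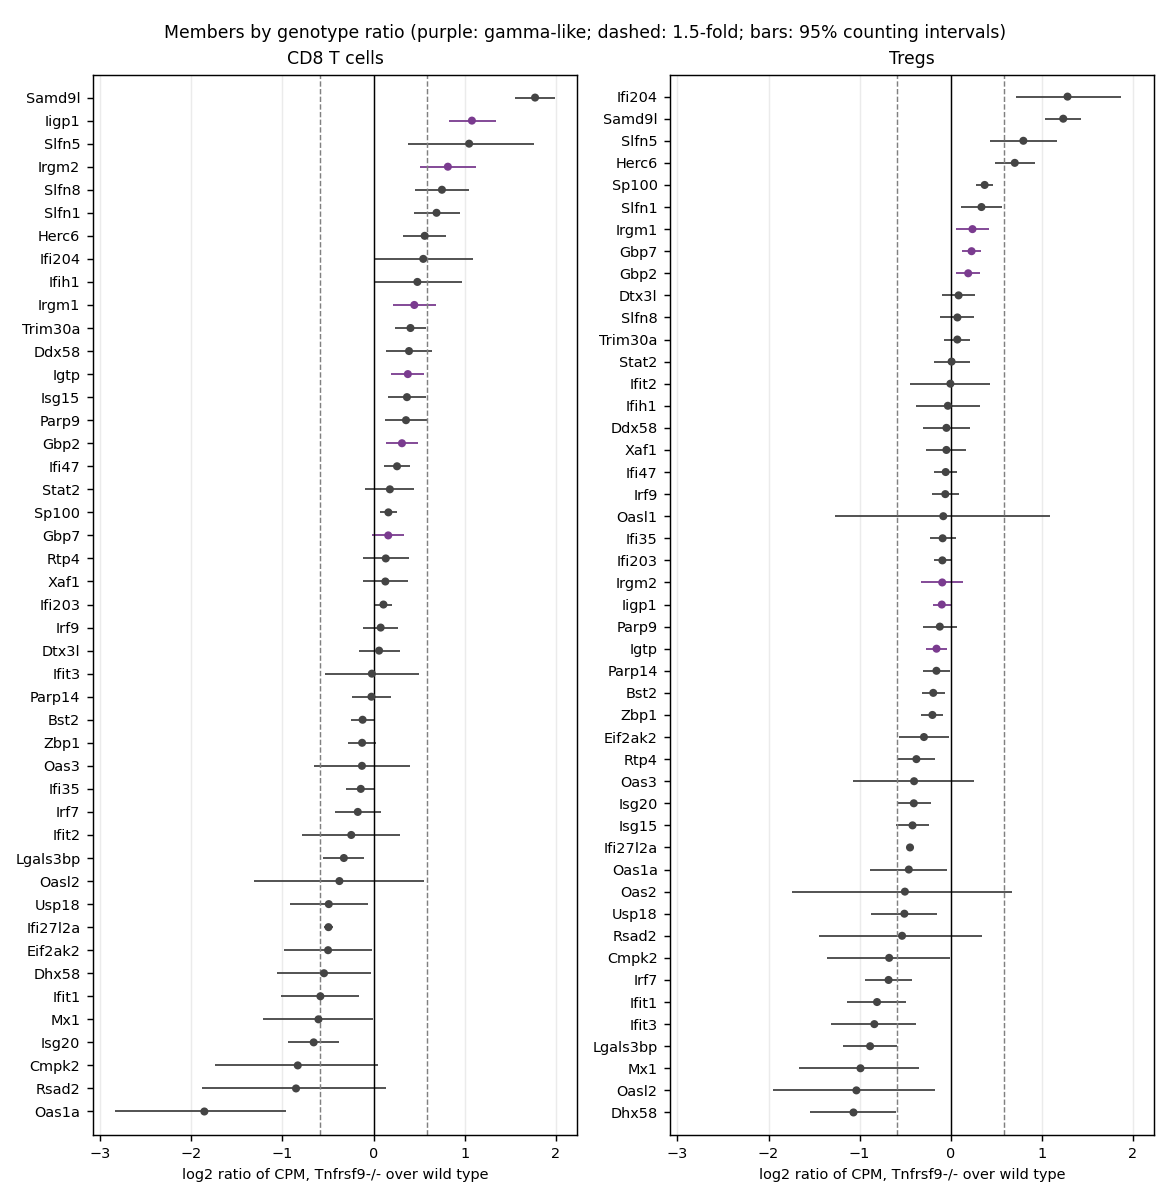
Log2 ratio of CPM, knockout over wild type, for the 45 members in CD8 T cells and 47 in Tregs with at least 20 UMIs over both libraries, each panel sorted by its own ratio; bars are 95% counting intervals, purple marks gamma-like members and dashed lines mark 1.5-fold. Samd9l lies at or near the top in both panels, gamma-like members lie above 0 in CD8 T cells and around 0 in Tregs, and Oas1a lies lowest in CD8 T cells.

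Of the members that are transcription factors, Stat2 and Irf9 differed within counting error in both classes and Irf7 was lower in knockout Tregs. Stat2 stood at 29.4 and 33.3 CPM in wild-type and knockout CD8 T cells and at 49.72 and 50.04 CPM in Tregs, both within counting error. Irf9, its partner in the ISRE-binding complex, stood at 59.2 and 62.5 CPM in CD8 T cells and 86.3 and 82.8 CPM in Tregs, also within counting error. Irf7, which amplifies type I interferon production, stood at 36.8 CPM (32.4 to 41.6) and 32.6 CPM (28.8 to 36.9) in CD8 T cells. In Tregs it stood at 40.2 CPM (36.1 to 44.6) and 25.02 CPM (21.7 to 28.7), so it was lower in the knockout there, at -0.68 on the log2 scale (-0.94 to -0.43).

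The RNA sensors did not move together. Ddx58, the sensor RIG-I, stood at 30.8 and 40.3 CPM in CD8 T cells, a log2 ratio of 0.39 (0.14 to 0.65), and at 30.0 and 29.1 CPM in Tregs, within counting error. With the naive-gene cells left out, its CD8 log2 ratio was -0.082 (-0.49 to 0.32). Ifih1, the sensor MDA5, stood at 8.70 and 12.1 CPM in CD8 T cells and 16.4 and 16.1 CPM in Tregs. Dhx58, the related LGP2 that lacks signaling domains, was lower in the knockout in both classes, 7.33 against 10.7 CPM in CD8 T cells and 6.87 CPM (5.19 to 8.92) against 14.4 CPM (12.01 to 17.1) in Tregs. Its log2 ratio in Tregs, -1.07 (-1.55 to -0.60), was the lowest of any member there. Zbp1 stood at 98.1 and 89.9 CPM in CD8 T cells, within counting error, and at 142 and 124 CPM in Tregs, a log2 ratio of -0.20 (-0.32 to -0.08).

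Among the antiviral effectors, Oas1a, Mx1 and Isg20 had lower knockout values in both classes with intervals clear of 0. Oas1a stood at 6.41 CPM (4.68 to 8.58) in wild-type and 1.77 CPM (0.968 to 2.97) in knockout CD8 T cells, on 45 and 14 UMIs. Its log2 ratio was -1.86 (-2.84 to -0.97) there and -0.46 (-0.89 to -0.04) in Tregs, where it stood at 13.5 and 9.81 CPM. The dynamin-like GTPase gene Mx1 was lower in both classes, 8.27 against 5.44 CPM in CD8 T cells and 7.31 against 3.68 CPM in Tregs. The exonuclease gene Isg20 stood at 35.5 and 22.5 CPM in CD8 T cells, a log2 ratio of -0.66 (-0.94 to -0.37), and -0.32 (-0.66 to 0.03) with the naive-gene cells left out. In Tregs it stood at 66.9 and 50.5 CPM, a log2 ratio of -0.41 (-0.59 to -0.22).

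Ifit1, whose protein binds viral RNA ends, stood at 15.5 CPM (12.8 to 18.7) and 10.4 CPM (8.25 to 12.9) in CD8 T cells. In Tregs it stood at 26.4 CPM (23.2 to 30.0) and 15.1 CPM (12.5 to 18), and Ifit3 at 13.2 CPM (10.9 to 15.8) and 7.36 CPM (5.62 to 9.47), while Ifit3 in CD8 T cells was 8.84 and 8.73 CPM. Lgals3bp stood at 49.6 and 39.6 CPM in CD8 T cells and 33.1 and 17.9 CPM in Tregs, a log2 ratio of -0.89 (-1.18 to -0.59) in the latter. Eif2ak2 stood at 11.97 and 8.47 CPM in CD8 T cells and 29.5 and 24.0 CPM in Tregs. Ifit1, Lgals3bp and Eif2ak2 thus had lower knockout values in both classes with intervals clear of 0, and Ifit3 in Tregs alone. The Ifit1 UMIs of CD8 T cells lay largely in few cells. With the naive-gene cells left out, the CD8 log2 ratio of Eif2ak2 was 0.020 (-0.56 to 0.58).

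Some of the effectors rest on few cells. Rsad2, the enzyme viperin, and its neighbour Cmpk2, a mitochondrial nucleotide kinase, had CD8 log2 ratios of -0.85 (-1.89 to 0.14) and -0.83 (-1.74 to 0.04), within counting error. All 24 Rsad2 UMIs of wild-type CD8 T cells were in 10 cells or fewer, 13 of them in 1 cell. In knockout Tregs, the 10 richest cells held 61.7% of the 60 Ifit3 UMIs and 70.0% of the 30 Mx1 UMIs. Oasl2, a relative of the synthetases without their activity, stood at 4.28 and 2.09 CPM in Tregs on 38 and 17 UMIs. For such genes the counting intervals are too narrow, since UMIs of 1 cell are not independent. Without the cells that carried Siglech and Ly6d UMIs, the CD8 log2 ratio was -1.07 (-2.17 to -0.04) for Rsad2 and -0.79 (-1.44 to -0.14) for Mx1. For Bst2 it was -0.01 (-0.16 to 0.14), with 137 and 126 CPM with these cells and 98.8 and 98.2 CPM without them.

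A smaller set was higher in the knockout in both classes, led by Samd9l. Samd9l encodes an antiviral protein that restricts poxviruses and holds back cell growth, and lies at chr6:3372257-3399572 on the minus strand. It stood at 31.2 CPM (27.2 to 35.6) in wild-type and 107 CPM (99.6 to 114) in knockout CD8 T cells, a 3.42-fold difference with a log2 ratio of 1.77 (1.56 to 1.99). In Tregs it stood at 34.6 CPM (30.9 to 38.7) and 81.6 CPM (75.5 to 88.0), a 2.35-fold difference with a log2 ratio of 1.24 (1.04 to 1.43). Cells with a Samd9l UMI were 20.2% and 45.7% of CD8 T cells and 16.6% and 34.2% of Tregs, so the gap was spread over many cells.

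Herc6, the mouse ligase that attaches ISG15 to proteins, stood at 33.9 and 50.1 CPM in CD8 T cells and 32.9 and 53.5 CPM in Tregs, with log2 ratios of 0.56 (0.33 to 0.80) and 0.70 (0.49 to 0.92). Slfn5 stood at 3.85 and 7.97 CPM in CD8 T cells and 11.4 and 19.7 CPM in Tregs, with log2 ratios of 1.05 (0.38 to 1.76) and 0.80 (0.43 to 1.17). Slfn1, linked to T cell quiescence, had log2 ratios of 0.69 (0.44 to 0.95) and 0.34 (0.11 to 0.57), and Slfn8 of 0.75 (0.46 to 1.05) and 0.07 (-0.11 to 0.26). Ifi204, a DNA-binding PYHIN protein, was low, with 6.84 and 9.99 CPM in CD8 T cells and 4.39 and 10.7 CPM in Tregs, the largest Treg log2 ratio of any member (1.28, 0.72 to 1.87). Without the cells that carried Siglech and Ly6d UMIs, the CD8 log2 ratio was 1.21 (0.48 to 1.99) for Slfn5. For Ifi204 it was then 0.50 (-0.05 to 1.06), within counting error. Sp100 stood at 246 and 276 CPM in CD8 T cells and 197 and 255 CPM in Tregs, smaller gaps on many more UMIs. Its CD8 log2 ratio was -0.048 (-0.18 to 0.08) once the naive-gene cells were left out.

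The gamma-like members separated from the others in CD8 T cells. Together they summed to 272 CPM (260 to 285) in wild-type and 369 CPM (356 to 383) in knockout CD8 T cells, a log2 ratio of 0.44 (0.36 to 0.52). In Tregs they summed to 720 CPM (702 to 738) and 740 CPM (722 to 759), 0.04 apart on the log2 scale (-0.01 to 0.09), within counting error. The type I-like members had log2 ratios of -0.09 in CD8 T cells and -0.27 in Tregs, and 0.15 and -0.03 without Ifi27l2a. The difference between gamma-like and type I-like log2 ratios was 0.53 in CD8 T cells and 0.31 in Tregs, and 0.29 (0.20 to 0.38) and 0.07 (0.02 to 0.13) without Ifi27l2a.

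In CD8 T cells the 6 GTPase genes all had a higher value in the knockout. Iigp1 had a log2 ratio of 1.08 (0.83 to 1.34), Irgm2 of 0.82 (0.51 to 1.13), Irgm1 of 0.45 (0.21 to 0.69), Igtp of 0.38 (0.20 to 0.56), Gbp2 of 0.31 (0.13 to 0.49) and Gbp7 of 0.16 (-0.01 to 0.34). In Tregs Gbp7 stood at 162 and 190 CPM, Gbp2 at 104 and 119 CPM and Irgm1 at 53.4 and 63.0 CPM, all higher in the knockout beyond counting error. Igtp, at 150 and 135 CPM, and Iigp1 were lower there by -0.16 and -0.10 on the log2 scale, and Irgm2, at 38.5 and 36.1 CPM, was within counting error. The gap of gamma-like sums between the libraries was thus larger in CD8 T cells than in Tregs by 0.40 (0.30 to 0.50) on the log2 scale.

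Most of the gamma-like difference in CD8 T cells was not seen when cells of like state were compared. The states are defined by Lef1 and Ccr7, by the 5 proliferation genes, or by neither, and none of these genes is a member. In cells with naive genes, gamma-like members stood at 513 CPM (wild type) and 538 CPM (knockout), a log2 ratio of 0.07 (-0.05 to 0.19). In cells with neither set they stood at 250.2 and 216 CPM, a log2 ratio of -0.21 (-0.38 to -0.05), and in proliferating cells at 155 and 141 CPM, within counting error. Cells with naive genes thus had more than the others in both libraries, and they were 255 of 891 wild-type and 706 of 1200 knockout CD8 T cells. Over all CD8 T cells without naive genes, proliferating ones included, Gbp2 and Igtp stood at -0.47 and -0.51 on the log2 scale, opposite to the whole class. Among single members, Iigp1 kept a gap in cells with naive genes, 60.7 and 80.3 CPM (log2 ratio 0.40, 0.07 to 0.75), and stood at 26.6 and 33.4 CPM in cells with neither set, within counting error. In proliferating cells Iigp1 was low but showed the widest gap, 4.15 and 14.1 CPM on 11 and 20 UMIs (log2 ratio 1.77, 0.63 to 2.97). Igtp and Gbp2 were lower in the knockout in cells with neither set, with log2 ratios of -0.61 (-0.99 to -0.23) and -0.61 (-0.98 to -0.24).

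Among CD8 T cells with naive genes or with neither set, more members were lower in the knockout than in the whole class. In cells with naive genes 9 of 43 members were at least 1.5-fold lower, against 5.73% of all genes, and in cells with neither set 10 of 44, against 4.89%. In proliferating cells 1 of 35 was lower, against 6.48%. Members at least 1.5-fold higher were, in the same order, 2, 3 and 6, against 13.3%, 11.7% and 12.4% of all genes.

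Samd9l was higher in the knockout in every state of both classes. In CD8 T cells it stood at 42.6 and 127 CPM in cells with naive genes, 39.04 and 98.6 CPM in cells with neither set and 16.2 and 61.4 CPM in proliferating cells. In Tregs it stood at 35.3 and 75.9 CPM, 39.3 and 103 CPM, and 23.8 and 48.3 CPM. Herc6 was higher beyond counting error in every Treg state, with log2 ratios between 0.54 and 0.90, and in 2 of the 3 CD8 states, with 0.15 (-0.27 to 0.58) in cells with naive genes.

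Ifi27l2a depended on state in CD8 T cells. In cells with naive genes it stood at 1059 CPM (wild type) and 550.4 CPM (knockout), a log2 ratio of -0.94 (-1.04 to -0.85), and in cells with neither set at 1618 and 1273 CPM. Over all CD8 T cells without naive genes its log2 ratio was -0.059 (-0.11 to -0.0043). In proliferating CD8 T cells the order was the opposite, 1037 and 1309 CPM, a log2 ratio of 0.34 (0.25 to 0.42). In Tregs it was lower in the knockout in all 3 states, with log2 ratios between -0.49 and -0.41. Type I-like members without Ifi27l2a stood at 2138 and 2146 CPM in CD8 T cells with naive genes, 1975 and 1847 CPM in those with neither set and 1143 and 1189 CPM in proliferating ones. Their pooled gap of 0.15 in favour of the knockout was therefore not present in the first 2 of these states. In proliferating cells their log2 ratio was 0.06 (-0.03 to 0.14), within counting error.

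**Figure D4:**
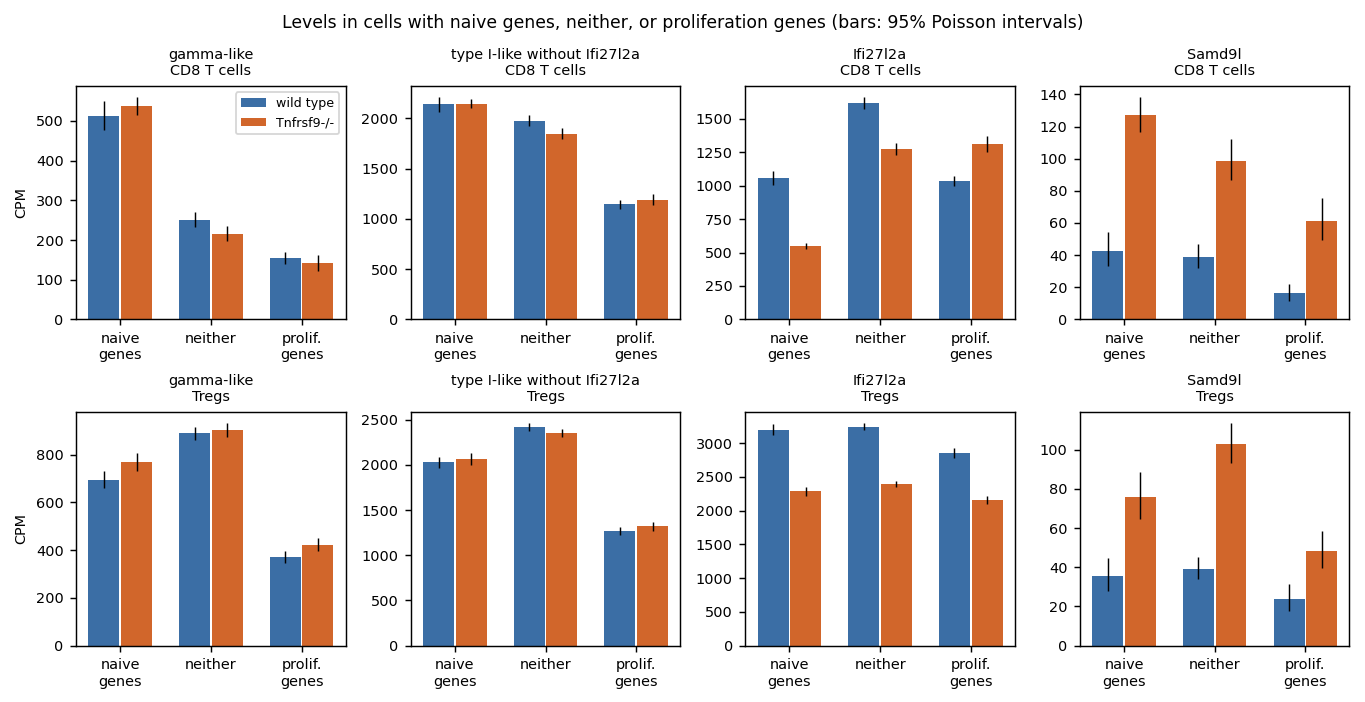
CPM of the gamma-like members, the type I-like members without Ifi27l2a, Ifi27l2a and Samd9l in cells with naive genes, with neither set and with proliferation genes, for CD8 T cells (top) and Tregs (bottom), in wild-type (blue) and knockout (orange) libraries with 95% Poisson intervals. Gamma-like levels in CD8 T cells follow the state more than the library (513 and 538 CPM against 155 and 141 CPM), whereas Samd9l is higher in the knockout in all 6 state and class pairs.

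To compare single cells at equal depth, 2000 UMIs were drawn from each cell that had them, which left out 17 wild-type and 16 knockout CD8 T cells and 76 and 55 Tregs. Type I-like members other than Ifi27l2a had a median of 3 UMIs of 2000 in CD8 T cells and 4 in Tregs, in both libraries. The mean and SD over cells were 3.70 and 3.94 in wild-type and 4.09 and 3.52 in knockout CD8 T cells. In Tregs they were 4.78 and 5.36 for wild-type and 4.72 and 4.50 for knockout cells. The variance was 4.19 and 3.03 times the mean in CD8 T cells and 6.01 and 4.28 times in Tregs, where sampling alone would give about 1, so a minority of cells held far more than the rest, up to 54 and 50 UMIs in CD8 T cells and 70 and 56 in Tregs. Before thinning the medians were 10 UMIs in CD8 T cells and 9 in Tregs.

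Gamma-like members were sparser in CD8 T cells. After thinning 63.2% of wild-type and 55.4% of knockout CD8 T cells had no gamma-like UMI, against 32.9% and 31.6% of Tregs, and before thinning 30.0% and 28.1% against 14.5% and 15.4%. Ifi27l2a was absent from 26.2% of wild-type and 41.9% of knockout CD8 T cells at 2000 UMIs, and from 5.89% and 10.0% of Tregs. Over cells of 1 class and library, type I-like members other than Ifi27l2a and gamma-like members had Spearman's rho between 0.27 and 0.40, and gamma-like members and Ifi27l2a between -0.03 and 0.12. These are descriptions over 874 to 1476 cells that share a library and a fixed depth, and in counts this sparse a weak rho is no finding.

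**Figure D5:**
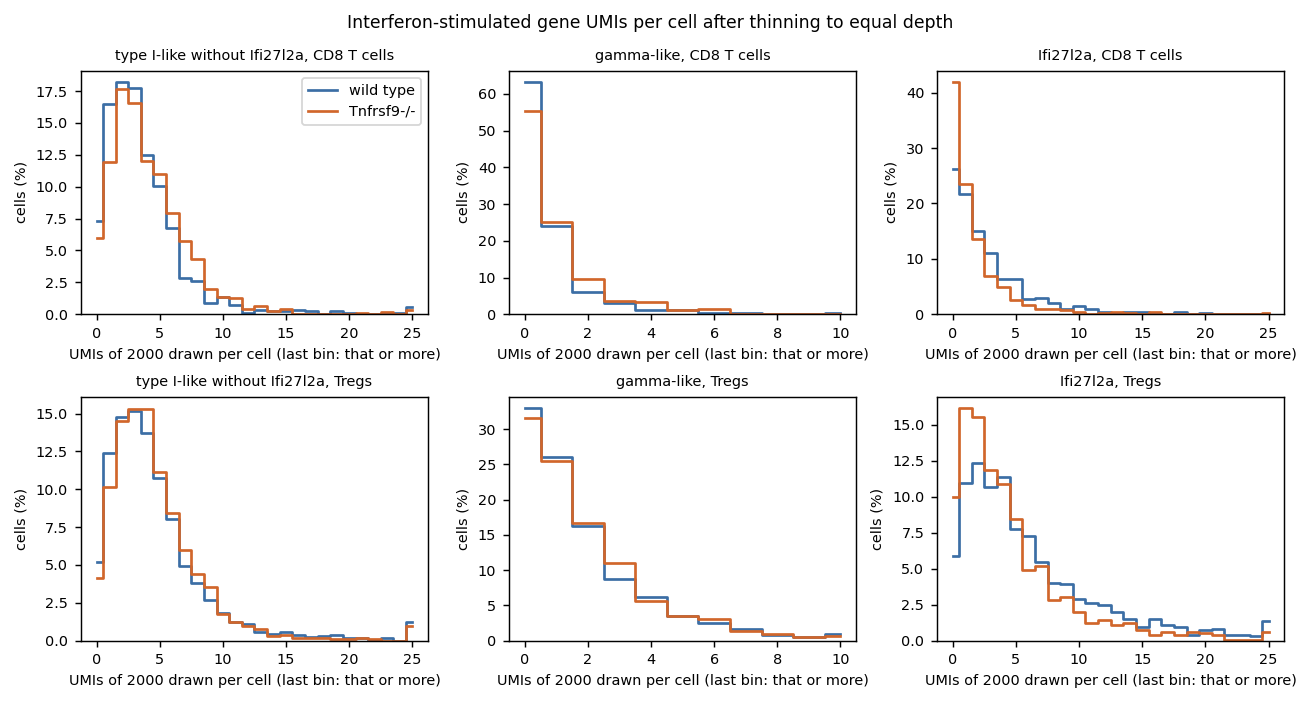
Share of cells (y axis, %) by number of UMIs among 2000 drawn per cell (x axis, last bin open) for type I-like members without Ifi27l2a, gamma-like members and Ifi27l2a, in CD8 T cells (top) and Tregs (bottom), wild type in blue and knockout in orange. The first 2 columns nearly overlap between libraries in Tregs, and Ifi27l2a is shifted to lower counts in the knockout in both classes (41.9% against 26.2% of CD8 T cells at 0).

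A cell was called high when its type I-like UMIs were above 18 of 2000, the 90th percentile of wild-type cells of both classes. High cells were 30 of 874 wild-type CD8 T cells (3.43%, Clopper-Pearson 95% interval 2.33 to 4.86) and 24 of 1184 knockout ones (2.03%, 1.30 to 3.001). In Tregs they were 194 of 1476 (13.1%, 11.5 to 14.97) and 118 of 1389 (8.50%, 7.08 to 10.1). The knockout minus wild-type difference was -1.41 percentage points (-2.98 to 0.00) in CD8 T cells and -4.65 points (-6.92 to -2.38) in Tregs. Within 1 UMI of the limit lay 12 and 16 CD8 T cells and 79 and 55 Tregs. With Ifi27l2a left out of the score and a limit of 8, high cells were 5.49% and 6.93% of CD8 T cells and 11.2% and 10.6% of Tregs, differences of 1.43 points (-0.72 to 3.50) and -0.60 points (-2.88 to 1.70). The lower share of high Tregs was therefore not seen without Ifi27l2a. By gamma-like UMIs above 4, high cells were 2.52% and 3.04% of CD8 T cells and 9.96% and 9.79% of Tregs.

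Cells high in type I-like members were high in gamma-like members more often than other cells of their class, though most were not. Of Tregs high in type I-like members other than Ifi27l2a, 32.1% (wild type) and 31.3% (knockout) were also high in gamma-like members, against 7.17% and 7.25% of the other Tregs, and this was 36.1% and 33.8% of all gamma-high Tregs. In CD8 T cells the overlap was 10 cells (20.8% of the type I-high and 45.5% of the gamma-high cells) of the wild-type library and 7 cells (8.54% and 19.4%) of the knockout library. Of the other CD8 T cells 1.45% and 2.63% were gamma-high. This overlap is not given without the cells that carried Siglech and Ly6d UMIs. Each gamma-like member was higher in type I-high than in other Tregs, with log2 ratios between 1.17 and 2.13 for wild-type and 1.20 and 1.72 for knockout cells.

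Genes outside the list entered this comparison with at least 20 UMIs in the high cells of each library. Of 4376 such genes, 147 were at least 1.5-fold higher in the type I-high Tregs than in the others in both libraries. Genes sparse in high cells could not enter, in Tregs or in CD8 T cells, and a count of lower genes is not given. The counts and the top genes are therefore shaped by this filter. The 12 with the largest ratios were taken. Among these 12 were Gm4955, Rnf213 (7.04-fold and 5.82-fold), the chemokine gene Cxcl10 (8.90-fold and 5.38-fold), Ddx60 (7.19-fold and 4.36-fold), Phf11c, Trim30d, Daxx and Pml, partners of Sp100 in nuclear bodies, and Gbp9. In CD8 T cells the list was led instead by genes of plasmacytoid dendritic cells (Ly6c2, Ly6d, Blnk, Bcl11a and Siglech), and 4 of 48 wild-type and 4 of 82 knockout high cells carried Siglech and Ly6d UMIs. Once those cells were left out, Gbp9, Phf11c, BC094916, Ddx60 and Rnf213 led in CD8 T cells too. Genes at least 1.5-fold higher in high CD8 T cells of both libraries were 117 of 2114 with those cells and 52 of 1713 without them. Median depth was 3718 UMIs in type I-high and 4631 in other wild-type Tregs, and 3501 and 4575 in the knockout.

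The genes upstream of these members were followed as a list of 15: receptor chains, kinases, transcription factors, inhibitors, Ifng and Ifnb1. Of 14 past the filter in CD8 T cells, 2 were at least 1.5-fold higher in the knockout and 0 lower, against 13.7% and 8.2% of all genes, so the higher share is that of the background. The gamma receptor chain Ifngr2 stood at 6.13 and 22.9 CPM and the transcription factor Irf1 at 163 and 249 CPM. The share of cells with naive genes moved with these values too, and its part in them was not tested. In Tregs 0 of 14 were past 1.5-fold in either direction, against 6.93% and 3.62% of all genes, with Irf1 at 209 and 234 CPM and Ifngr2 at 15.1 and 19.7 CPM. Ifng stood at 125 and 136 CPM in CD8 T cells and 12.2 and 15.5 CPM in Tregs. Its log2 ratios, 0.12 (-0.01 to 0.25) and 0.35 (-0.04 to 0.73), were within counting error. Cells with an Ifng UMI were 39.4% (wild type) and 29.1% (knockout) of CD8 T cells, and 4.57% and 6.09% of Tregs. Ifnb1 had no UMI in either class or library, which allows up to 0.526 CPM in wild-type CD8 T cells (upper Poisson limit).

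Isg15, a ubiquitin-like protein, and Ddx58 lie on the chromosome of the deleted gene, chromosome 4. Isg15 lies 5.25 Mb from Tnfrsf9 and Ddx58 lies 111 Mb away. Isg15 stood at 44.6 and 57.5 CPM in CD8 T cells, a log2 ratio of 0.37 (0.16 to 0.58), and at 72.7 and 54.3 CPM in Tregs, a log2 ratio of -0.42 (-0.60 to -0.24). Under a stricter rule for the classes the CD8 value was -0.02 (-0.29 to 0.24), and without the cells with Siglech and Ly6d UMIs it was 0.28 (0.06 to 0.49). Among genes within 10 Mb of Tnfrsf9, 24.1% of 133 in CD8 T cells and 9.09% of 143 in Tregs were past 1.5-fold in either direction, against 21.9% and 10.6% of all genes. Whether the region around the deleted gene differs in sequence between the strains was not tested.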

How the data were processed

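The members, gene lists and alternatives were chosen with earlier results of these data known. The authors deposited raw UMI counts over 27998 genes for every barcode in the filtered output of Cell Ranger 7.0.0 with build mm10, per the submitters' processing notes, with no normalization. Whether intronic reads were counted is not given in the sources used here. Groups came from the sample labels. UMIs were summed per class and library and scaled to CPM of the class total, with exact Poisson intervals. Ratios have exact conditional intervals, shares Clopper-Pearson and their differences Newcombe intervals, all at 95%. No count model was fitted. edgeR 4.0.16 in R 4.3.3 gave only the TMM factors of one alternative. Genes entered a comparison with at least 20 UMIs in its 2 sums, and "at least 1.5-fold" replaces a test. The comparison of high with other cells instead required at least 20 UMIs in the high cells of each library. Cells were thinned to 2000 UMIs (1000 as an alternative) with numpy 2.4.6. No doublet caller was run, and cells with UMIs of both Cd8 genes and Cd4 or Foxp3 were in neither class (271 kept cells of each library were in neither). The interval and thinning code was tested on simulated data.

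Named members were the 10 with most UMIs, the 6 with the largest ratio each way between genotypes per class and between classes in the same direction in both libraries, the gamma-like members, Stat2, Irf7, Irf9, Ddx58, Ifih1, Dhx58, Zbp1 and those on the chromosome of Tnfrsf9. Non-members came from a list of 15 pathway genes or were up to 12 genes per class most raised in high cells. Oasl1, Oas2 and Ifi44 were named after their values were seen. The cells with Siglech and Ly6d UMIs were noticed in the data, and leaving them out was added then. Naive cells were those with at least 2 UMIs of Lef1 and Ccr7, a rule set after the data were seen. Some genes first listed are not reported here.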

Additional observations from a re-analysis of the deposited data

Results flagged for a closer look

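For 4 members the gap between knockout and wild type had one sign among CD8 T cells and the other sign among Tregs, with both intervals clear of 0. The same count over all genes is not given, so it is not read as particular to the members. Isg15 had a log2 ratio of 0.37 in CD8 T cells and -0.42 in Tregs. Iigp1 had 1.08 and -0.10, Igtp 0.38 and -0.16, and Ifi203 0.11 and -0.09. The Treg intervals of Iigp1 (-0.20 to -0.0014) and Ifi203 (-0.18 to -0.0024) barely cleared 0 and cover counting error only. With 1 library per genotype, the opposite signs were not tested. Igtp and Ifi203 had log2 ratios of -0.51 and -0.061 in CD8 T cells when cells with naive genes were left out, and the Isg15 value was -0.025 under the stricter class rule. Iigp1 stayed above 0 in CD8 T cells under the 7 alternatives tried, with values from 0.70 to 1.12. By state its gap was smaller in cells with naive genes, within counting error with neither set, and widest in proliferating cells on few UMIs. The 10 richest cells held 41.1% of its 180 wild-type and 18.4% of its 429 knockout CD8 UMIs, so its counting intervals are too narrow. The share of cells with naive genes, 28.6% and 58.8% of CD8 T cells, moved with these values, and its part in them was not tested beyond the values given.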

How the results depend on the processing

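No paired analysis was possible because each genotype has 1 library. Of 104 values recomputed for the summed list, the high cells and the counts, 69 were the same within counting error or within 1.5 times, 33 moved and 2 reversed. The module log2 ratio of knockout over wild type in CD8 T cells, -0.04, was 0.19 without Ifi27l2a, -0.21 without proliferating cells, -0.11 with stricter cell limits (500 to 4000 genes, 10% mitochondrial UMIs), -0.10 under a stricter class rule (CD8 T cells with at least 3 Cd8 UMIs and none of the Treg genes, Tregs with a Foxp3 UMI or at least 2 of the others) and -0.079 with each cell weighted alike. In Tregs, -0.23 became -0.014 without Ifi27l2a and -0.27 with TMM scaling. The Treg over CD8 log2 ratio, 0.87 for wild-type and 0.68 for knockout cells, was 0.77 and 0.54 with TMM scaling, 0.81 and 0.71 under the stricter cell limits, 0.73 and 0.62 under the stricter class rule, 0.75 and 0.74 without proliferating cells, 0.98 and 0.77 without cells with naive genes, and 0.49 and 0.28 without Ifi27l2a. It was 0.71 in the knockout with cells weighted alike and 0.90 in the wild type without the cells with Siglech and Ly6d UMIs. The gamma-like minus type I-like difference in CD8 T cells, 0.53, was -0.10 without cells with naive genes, 0.42 under the stricter class rule, 0.29 without Ifi27l2a and 0.20 without the member with most UMIs of each group. In Tregs, 0.31 became 0.25 with cells weighted alike, 0.074 without Ifi27l2a and 0.13 without the top member of each group. The high-cell difference in CD8 T cells was 1.43 points without Ifi27l2a in the score, and in Tregs -0.596 points without it. Members at least 1.5-fold lower in CD8 T cells, 5, were 10 under the stricter cell limits, 9 under the stricter class rule, 3 without cells with naive genes and 11 without proliferating cells, where 3 and not 6 were higher. These counts lack the shares of all genes under the same alternatives. Of 518 values for named members, 9 reversed, all in CD8 T cells. Without cells with naive genes, Ddx58 was -0.082, Eif2ak2 0.020, Gbp2 -0.47, Ifi203 -0.061, Ifi47 -0.24, Igtp -0.51 and Sp100 -0.048; Ifi203 was -0.030 without proliferating cells, and Isg15 -0.025 under the stricter class rule. The values without Ifi27l2a moved because that gene was left out, and for the others the cause was not tested. The leave-out of the Siglech and Ly6d cells, of Ifi27l2a from scores of cells with naive genes (in this form) and of cell states from counts was chosen after seeing the data, and the form planned for naive cells is not reported here.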
